A study of Mus musculus with 6 samples.

Results

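Genes of the BCL2 family, which decide whether a cell survives or dies through its mitochondria, were examined in mouse mast cells with and without the microRNA miR-155. The set holds 10 genes (Bcl2, Bcl2l1, Mcl1, Bcl2l11, Bax, Bak1, Bid, Bbc3, Pmaip1 and Bad), chosen by name and each taken from the deposited value table by its single gene symbol, with the brightest probe set kept where a gene had several. Of the 10 genes, 9 had such a probe set, 1 each, among the 19938 genes measured. Bax, a pore-forming effector, is not analysed here. The cells were mast cells grown for 5 weeks from bone marrow of C57BL/6J mice with the growth factors SCF (1 ng/ml) and IL-3 (0.5 ng/ml). The mice were wild type (WT) or lacked miR-155 (mir-155 KO, here KO). Both groups were loaded overnight with anti-DNP IgE (0.2 µg/ml) and then given the antigen DNP-HSA (20 ng/ml) for 1 h, so the comparison is between genotypes after stimulation and does not measure the response to antigen. Each group had 3 independent cultures and 1 Affymetrix Mouse Gene 1.0 ST array per culture. The sources used here do not give the number of mice behind the cultures.

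BCL2 family proteins fall into classes with different roles. Pro-survival members such as BCL2, BCL-XL (Bcl2l1) and MCL1 hold the pore-forming effectors BAX and BAK (Bak1) in check, and BH3-only members such as BIM (Bcl2l11), BID, PUMA (Bbc3), NOXA (Pmaip1) and BAD either bind the pro-survival proteins or activate the effectors. Mast cells depend on SCF and IL-3 for survival, BIM is a known mediator of their death when these factors are withdrawn, and cross-linking of the IgE receptor is known to promote their survival through the relative A1. Several of these proteins are controlled after transcription, BAD by phosphorylation, BID by cleavage and MCL1 by rapid degradation, which RNA levels do not show.

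The microRNA removed in the KO is printed first, with its seed (bases 2 to 8), the stretch that pairs with target messages, in capitals, as RefSeq gives it on GRCm38.p6 at chr16:84714143-84714165, plus strand.
mmu-miR-155-5p: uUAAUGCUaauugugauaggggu

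Foxo1, a transcription factor whose family is known to activate Bcl2l11 and Bbc3, is the gene of the upstream regulator list that passed the test below. Foxo1 passed in 6 of the 14 alternative fits and in no fit without 1 array. The promoters of the measured members were searched on both strands for the core forkhead motif GTAAACA, a STAT motif and an E-box. The forkhead motif was chosen because Foxo1 passed in these same data, so its matches are a description only. RefSeq promoter windows, from 250 bases before to 50 after a start on GRCm38.p6, were held for 8 of the 9 measured genes; Pmaip1 was not among them. Bcl2l11 had 1 match in 2 windows and Bbc3, on the opposite strand (TGTTTAC), 1 in 3 windows. There was none in the windows of Bcl2l1 (3), Bad (2), or Bcl2, Mcl1, Bak1 and Bid (1 each). A match was in 3.65% of the 32851 windows of the table, and an excess in the members was not tested. Neither the Bcl2l11 nor the Bbc3 match overlapped a match to the other motifs. The letters of the STAT motif TTCNNNGAA were in no measured member's window (8.30% of all windows) and those of the E-box CACGTG, bound by MITF and MYC proteins, in 1 window of Bbc3 (7.15% of all windows). The 250 bases before the start are shown for both genes with the forkhead match, with the motif in capitals, Bcl2l11 at chr2:128125788-128126037 and Bbc3 at chr7:16310011-16310260, both on the plus strand.
Bcl2l11: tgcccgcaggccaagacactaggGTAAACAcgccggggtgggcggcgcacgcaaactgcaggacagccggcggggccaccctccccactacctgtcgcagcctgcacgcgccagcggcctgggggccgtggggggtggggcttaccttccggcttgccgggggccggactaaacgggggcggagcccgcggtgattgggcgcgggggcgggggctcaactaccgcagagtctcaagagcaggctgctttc
Bbc3: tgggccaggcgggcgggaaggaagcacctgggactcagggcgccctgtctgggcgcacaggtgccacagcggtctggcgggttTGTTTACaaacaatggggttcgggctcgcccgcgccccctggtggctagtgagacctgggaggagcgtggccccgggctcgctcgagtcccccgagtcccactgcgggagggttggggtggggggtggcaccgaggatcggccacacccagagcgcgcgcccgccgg
These are matches of letters and no binding was measured.

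None of the 9 genes passed the test at an adjusted p of 0.05. Of the 9, 4 lay higher on all 3 KO arrays than on any WT array. They were the BH3-only genes Bcl2l11 and Pmaip1 and the pro-survival genes Bcl2l1 and, by a narrow gap, Mcl1. The mean differences of Bcl2l11, Pmaip1 and Bcl2l1 were between 0.60 and 0.74 on the log2 scale (1.52-fold to 1.67-fold). The other genes, Mcl1 among them, differed by between -0.08 and 0.17. The test was limma over all 19938 genes with Benjamini-Hochberg adjustment, by which 0.823% of genes passed (101 higher and 63 lower in KO). At an unadjusted p under 0.05 the same limma fit had 3 of the 9 genes and 2531 of all genes. The groups thus did not overlap for 4 of the 9 genes, all with KO higher, though Mcl1 overlapped after median centring or quantile normalization. Among all genes the groups did not overlap for 17.2%, and for 8.18% with KO higher. The median difference was 0.14 over the 9 genes and -0.01 over all genes. Levels are the authors' RMA values, log2 intensities, and differences are KO minus WT. In bulk RNA, fewer cells of a type and less RNA per cell cannot be told apart.

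**Figure D1:**
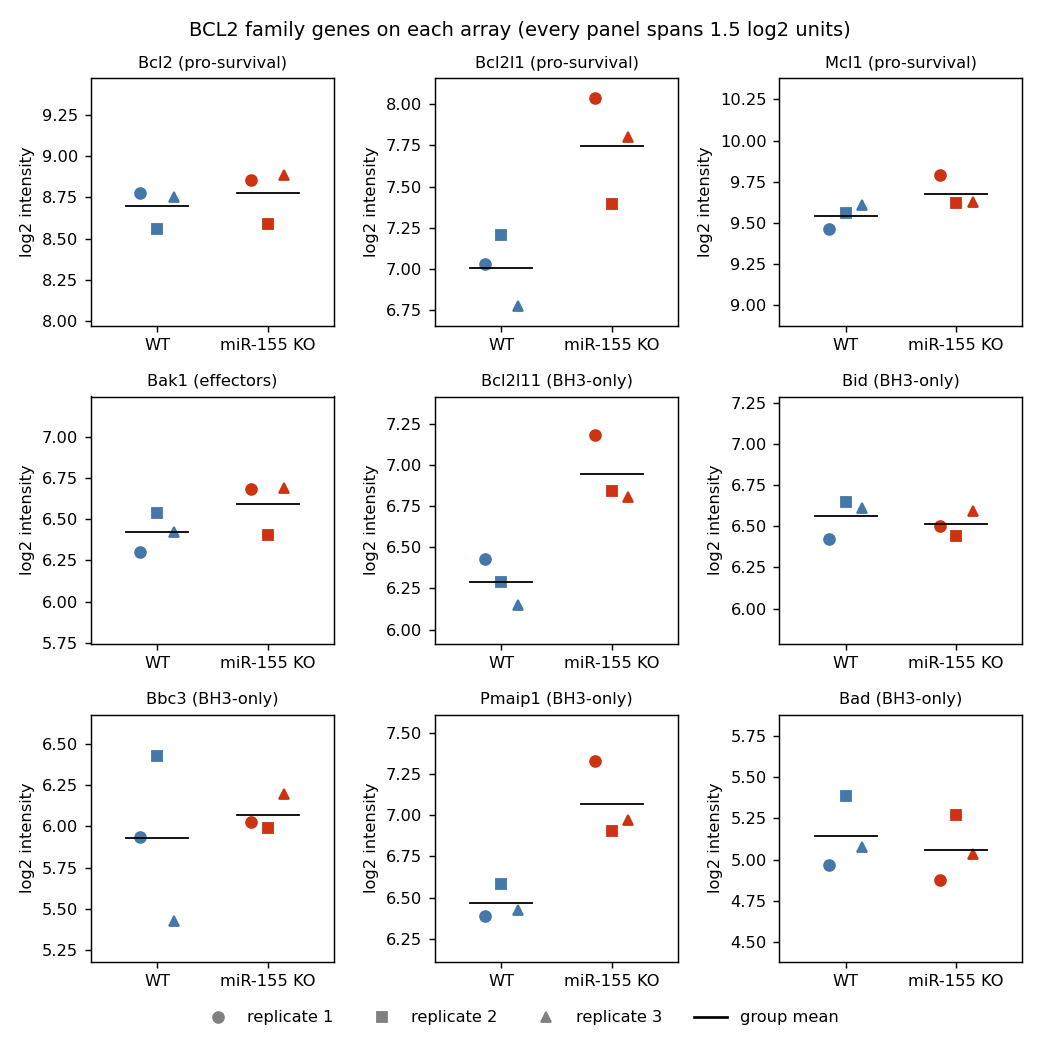
Log2 intensity of the 9 measured BCL2 family genes on each array, by genotype, with a marker for each replicate and a line at the group mean; every panel spans 1.5 log2 units. The KO arrays lie above all WT arrays for Bcl2l1, Mcl1, Bcl2l11 and Pmaip1, by a narrow gap for Mcl1.

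Among the pro-survival genes, Bcl2l1 had the largest difference of the 9. It encodes BCL-XL, and the probe set does not separate its splice forms. It read 7.03, 7.20 and 6.78 in WT replicates 1, 2 and 3 and 8.04, 7.40 and 7.80 in KO replicates 1, 2 and 3. The lowest KO array (replicate 2) stood 0.39 above the WT mean and the highest (replicate 1) 1.03 above it. The means were 7.00 ± 0.22 and 7.75 ± 0.32 (log2, SD, n = 3), a difference of 0.74 (SE 0.17, limma adjusted p = 0.0935). Without KO replicate 2 the difference was 0.92 and passed (adjusted p = 0.0437), with 0.838% of all genes passing in that fit. In the other fits without 1 array the difference was between 0.60 and 0.84 and did not pass (adjusted p up to 0.241).

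Mcl1, which encodes a short-lived pro-survival protein, read 9.46, 9.56 and 9.61 in WT replicates 1, 2 and 3 and 9.79, 9.62 and 9.63 in the KO replicates in the same order. KO replicates 2 and 3 thus lay just above the highest WT array. The difference was 0.13 (SE 0.09, limma adjusted p = 0.629), with a 95% interval from -0.07 to 0.34. Bcl2, the founding member, read 8.78, 8.56 and 8.75 in WT and 8.86, 8.59 and 8.89 in KO arrays, replicates in order. The groups overlapped, with replicate 2 lowest in both genotypes. The difference was 0.08 (SE 0.11, limma adjusted p = 0.853), with an interval from -0.17 to 0.33.

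Bak1, the effector measured, read 6.30, 6.54 and 6.42 in WT replicates 1, 2 and 3 and 6.69, 6.40 and 6.69 in the KO replicates. KO replicates 1 and 3 lay above all WT arrays and KO replicate 2 lay among them. The difference was 0.17 (SE 0.11, limma adjusted p = 0.601), with a 95% interval from -0.08 to 0.42.

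Among the BH3-only genes, Bcl2l11 and Pmaip1 were higher on every KO array. Bcl2l11, which encodes BIM in several splice forms that the probe set does not separate, read 6.43, 6.29 and 6.15 in WT replicates 1, 2 and 3 and 7.18, 6.84 and 6.80 in KO replicates 1, 2 and 3. KO replicates 2 and 3 stood 0.56 and 0.52 above the WT mean and KO replicate 1 stood 0.90 above it. The means were 6.29 ± 0.14 in WT and 6.94 ± 0.21 in KO (log2, SD, n = 3), a difference of 0.66 (SE 0.12, 1.58-fold, limma adjusted p = 0.0542). The 95% interval of this difference, not adjusted for the number of genes, ran from 0.37 to 0.94. Bcl2l11 lay so close to the threshold that the fit decided the call: it passed in 4 of the 14 alternatives, among them trend and robust priors (adjusted p = 0.0427, 1.15% of all genes passing), leaving out dim genes (0.0456, 2.07%) and centring each array on its median (0.0492, 0.953%). It did not pass in any fit without 1 array (adjusted p from 0.0849 to 0.165).

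Pmaip1 encodes NOXA, a BH3-only protein that binds MCL1 and is induced by p53. It read 6.39, 6.58 and 6.43 in WT replicates 1, 2 and 3 and 7.33, 6.90 and 6.97 in KO replicates 1, 2 and 3. All KO arrays lay above all WT arrays, with KO replicate 1 again highest. The means were 6.47 ± 0.10 and 7.07 ± 0.23 (log2, SD, n = 3), a difference of 0.60 (SE 0.12, 1.52-fold, limma adjusted p = 0.0729). It passed under none of the 14 alternatives (adjusted p from 0.0569 to 0.225).

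**Figure D2:**
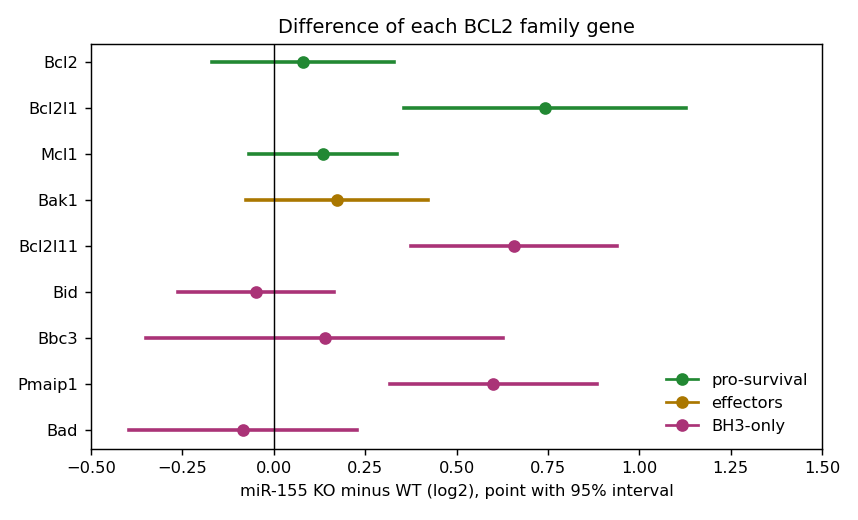
KO minus WT difference (log2) of each of the 9 genes, with its 95% interval from the limma fit, not adjusted for the number of genes; colours mark the class. The intervals of Bcl2l1, Bcl2l11 and Pmaip1 lie above 0 and those of Bcl2, Mcl1, Bak1, Bid, Bbc3 and Bad include it.

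The other BH3-only genes overlapped between genotypes. Bbc3, which encodes PUMA, read 5.94, 6.43 and 5.43 in WT replicates 1, 2 and 3 and 6.03, 5.99 and 6.20 in the KO replicates. The WT arrays spread over a wider range than the KO arrays (SD 0.50 against 0.11). The difference was 0.14 (SE 0.21, limma adjusted p = 0.876), and without WT replicate 3 it was -0.11. The interval of the Bbc3 difference over all arrays (-0.35 to 0.63) included 0 and overlapped that of Bcl2l11. The gap between these genes was not tested. Whether the forkhead letters found in both promoters bear on expression was not tested either.

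Bid, which links death receptors to mitochondria after cleavage by an initiator caspase, read 6.42, 6.65 and 6.61 in WT and 6.50, 6.44 and 6.59 in KO arrays, replicates in order. All KO values lay within the WT range. The difference was -0.05 (SE 0.09, limma adjusted p = 0.907), with an interval from -0.26 to 0.16. Bad, the BH3-only protein held inactive by growth factor kinases, read 4.97, 5.38 and 5.08 in WT and 4.88, 5.27 and 5.03 in KO arrays. Replicate 2 was highest in both genotypes. The difference was -0.08 (SE 0.14, limma adjusted p = 0.888), with an interval from -0.40 to 0.23.

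The probe set of Mir155 itself read 2.93, 2.88 and 3.17 in WT and 2.77, 2.91 and 2.90 in KO replicates 1, 2 and 3, below the array medians of 3.67 to 3.74, so it checks neither the deletion nor the group labels. KO replicate 1 lay apart from the other arrays over all genes (first principal component 32.0, with 5.36 and 7.31 for KO replicates 2 and 3 and -19.5 to -10.6 for WT), and it was the highest KO array for 4 of the 9 genes, the same 4 whose groups did not overlap. Without it the differences were 0.60 for Bcl2l1, 0.54 for Bcl2l11, 0.47 for Pmaip1 and 0.08 for Mcl1 (limma adjusted p = 0.206, 0.0961, 0.115 and 0.884), with 0.517% of all genes passing. The groups still did not overlap for these 4 genes without it, against 25.4% of all genes in that fit.

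Bcl2l1 and Bcl2l11 had the largest spread over the 6 arrays (SD 0.47 and 0.39), and the genes with the most similar profiles were looked up among 10742 genes brighter than the array median. Closest to Bcl2l1 were Itpkc, an inositol trisphosphate kinase (r = 0.996), Pprc1, a coactivator of mitochondrial gene expression (0.995), and Acbd3, a Golgi protein (0.995). Their own differences were 0.26, 0.39 and 0.37 and did not pass (limma adjusted p = 0.270, 0.147 and 0.141). Closest to Bcl2l11 were Map3k14, the NF-κB-inducing kinase (0.995), Lama5, a laminin chain (0.990), and Tpst2, a tyrosylprotein sulfotransferase (0.989). Their differences were 0.50, 0.72 and 0.33 (limma adjusted p = 0.0967, 0.0723 and 0.146). These are Pearson correlations over 6 arrays that share the genotype split, and they are given as a description only.

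Of the other BCL2 family genes, 14 of 17 had a probe set with a single symbol, and 0 rose, 0 fell and 14 did not pass (limma, 3 at an unadjusted p under 0.05). Across all 19938 genes, 0.823% passed and 2531 were at an unadjusted p under 0.05. The median difference was -0.01, equal to that of all genes at this precision, with 7 differences above and 7 below 0. Groups did not overlap for 3 of the 14 genes, against 17.2% of all genes. Bmf, a BH3-only gene, read 4.81, 4.69 and 5.06 in WT and 4.07, 4.48 and 4.62 in KO replicates, with all KO arrays below all WT arrays. Its difference was -0.46 (SE 0.15, limma adjusted p = 0.233), the opposite sign to Bcl2l11 and Pmaip1. Bcl2a1c, a copy of the A1 gene, differed by 0.52 (SE 0.18, adjusted p = 0.260), with a WT mean of 2.42 ± 0.04 below the array medians of 3.67 to 3.74, so this fold may be inexact. Becn1, an autophagy protein with a BH3 domain, differed by 0.20 (SE 0.09, adjusted p = 0.360) and did not overlap.

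The mitophagy receptor genes Bnip3 and Bnip3l differed by -0.21 and 0.08, the pro-survival gene Bcl2l2 (BCL-W) by -0.13 and the BH3-only genes Hrk and Bik by -0.16 and 0.02. Bok, a BAX-like gene, differed by 0.01. Bcl2l10, Bcl2l12, Bcl2l13, Bcl2l14 and Bcl2l15 differed by between -0.16 and 0.06. The means of Bcl2l10, Bcl2l14 and Bcl2l15 (2.68 to 3.06) lay below the array medians in both genotypes. Their small differences therefore do not show an absence of change. Bcl2a1a, Bcl2a1b and Bcl2a1d had no probe set of a single symbol.

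**Figure D3:**
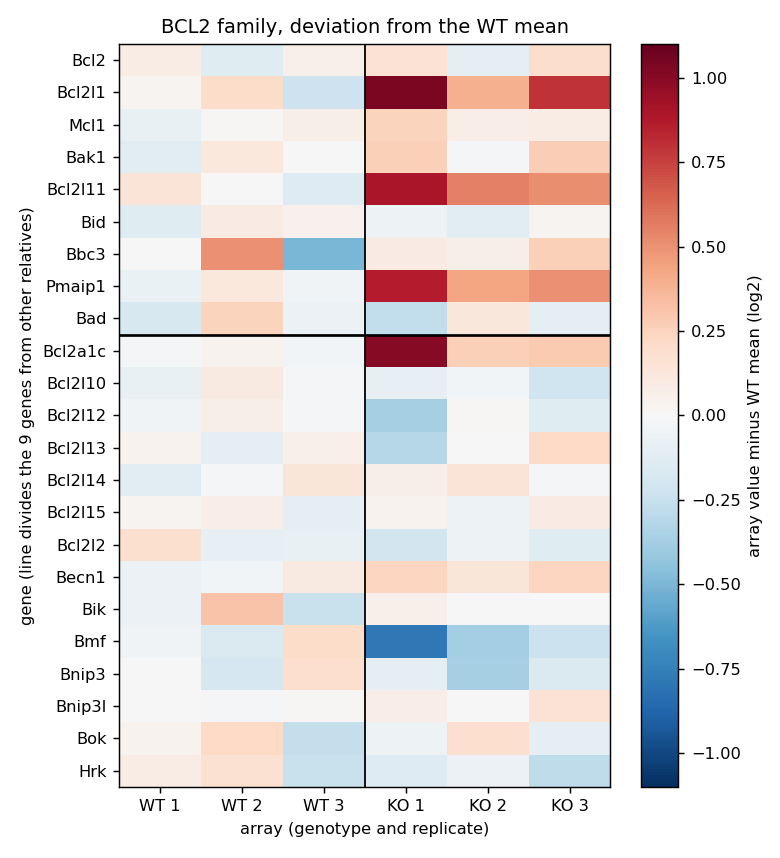
Value of each array minus the WT mean (log2, colour) for the 9 genes, above the line, and 14 relatives below it; columns are the 3 WT and 3 KO arrays. Bcl2l1, Bcl2l11, Pmaip1 and Bcl2a1c are above the WT mean on all KO arrays, most on KO replicate 1, and Bmf is below it on all KO arrays. With smaller mean differences, Mcl1, Bbc3, Becn1 and Bnip3l are also above the WT mean on all KO arrays. Bcl2l2, Bcl2l10, Bnip3 and Hrk are also below it on all KO arrays, by smaller mean differences than Bmf.

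Downstream of the family, 17 of 19 genes of the mitochondrial death machinery were measured and 0 rose, 0 fell and 17 did not pass (limma, 3 at an unadjusted p under 0.05). By comparison, 0.823% of all genes passed and 2531 of 19938 were at an unadjusted p under 0.05. Casp9, the initiator caspase of the apoptosome, read 7.20, 7.24 and 7.17 in WT and 6.31, 6.78 and 6.70 in KO replicates. All KO arrays lay below all WT arrays, by a difference of -0.60 (SE 0.12, adjusted p = 0.0715). Parp1, a caspase substrate, differed by -0.60 (SE 0.16, adjusted p = 0.128) and Cycs, cytochrome c, by 0.22 (SE 0.08, adjusted p = 0.245). Apaf1, the scaffold of the apoptosome, differed by -0.01 and Xiap, a caspase inhibitor, by 0.01. The groups did not overlap for 3 of the 17 genes, close to the 17.2% of all genes, and the median difference was -0.01.

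Upstream, 16 of 18 regulators of the family were measured, of which 1 rose, 0 fell and 15 did not pass (limma, 8 at an unadjusted p under 0.05). The gene that rose was Foxo1, which read 6.14, 6.00 and 5.95 in WT and 6.61, 6.47 and 6.64 in KO replicates. The groups lay apart, with a difference of 0.54 (SE 0.09, 1.46-fold, adjusted p = 0.0400). It passed in 6 of the 14 alternatives and in no fit without 1 array (adjusted p from 0.0526 to 0.138). Foxo3, a relative that also acts on Bcl2l11, differed by -0.03. Foxo4, another relative, differed by -0.19, with all KO arrays below all WT arrays. Myc differed by 0.72 (SE 0.17, adjusted p = 0.0984). It passed without KO replicate 2 (adjusted p = 0.0188) and in no other fit without 1 array (adjusted p up to 0.243). Mdm2, the p53 ligase, differed by 0.26 (SE 0.08, adjusted p = 0.210). The other genes at an unadjusted p under 0.05 were Ddit3 (-0.38), Mitf (-0.29) and Creb1 (-0.28), lower in KO, and Jun (0.39) and Egr1 (0.27), higher. The groups did not overlap for 7 of these 16 genes, 5 with KO higher and 2 lower (Foxo4 and Creb1). The share over all genes was 17.2% (8.18% higher, 9.05% lower). Over all genes 0.823% passed and 2531 of 19938 were at an unadjusted p under 0.05.

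Of 14 genes of SCF and IL-3 survival signalling 0 rose, 0 fell and 14 did not pass (limma, 4 at an unadjusted p under 0.05), with a median difference of -0.07. Over all genes 2531 of 19938 were at an unadjusted p under 0.05. Groups did not overlap for 5 of the 14 genes, 3 with KO higher and 2 lower, against 17.2% of all genes (8.18% higher, 9.05% lower). The 2 lower in KO were Pik3r1 (-0.36) and Akt2 (-0.13). Jak2, a kinase of the IL-3 receptor, differed by 1.06 (SE 0.25, adjusted p = 0.0962), its substrate Stat5a, a known activator of Bcl2l1, by 0.68 (SE 0.15, adjusted p = 0.0924) and the survival kinase Pim1 by 0.69 (SE 0.18, adjusted p = 0.133). For these 3 genes all KO arrays lay above all WT arrays, and each passed without KO replicate 2 (adjusted p = 0.0438, 0.0436 and 0.0322). None of the 3 passed in another fit without 1 array (adjusted p up to 0.243, 0.228 and 0.298). The SCF receptor Kit differed by -0.07 and the receptor chains Il3ra, Csf2rb and Csf2rb2 by -0.08, -0.11 and -0.11.

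Of 12 measured p53 target genes 0 rose, 0 fell and 12 did not pass (limma, 5 at an unadjusted p under 0.05), with a median difference of 0.12. Over all genes 2531 of 19938 were at an unadjusted p under 0.05. Groups did not overlap for 5 of the 12 genes, 4 with KO higher and 1 lower, against 17.2% of all genes (8.18% higher, 9.05% lower). The lowest p belonged to Gadd45a, a stress gene, at -0.40 (SE 0.08, adjusted p = 0.0760), the death receptor gene Tnfrsf10b at 0.44 (SE 0.10, adjusted p = 0.0877) and the death receptor gene Fas at 1.67 (SE 0.42, adjusted p = 0.119). Fas read 3.40, 3.58 and 3.36 in WT, below the array medians, and 6.20, 4.10 and 5.06 in KO replicates, so its difference is inexact. Fas passed without KO replicate 2 (adjusted p = 0.0218) and in no other fit without 1 array (adjusted p up to 0.290). Differences of these targets, like those of the BH3-only genes, had both signs.

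Mast cell markers were bright on average in both groups, and 0 of 13 measured passed by limma, against 0.823% of all genes. At an unadjusted p under 0.05 there were 4, against 2531 of all 19938 genes. They were Hdc (0.84), Mcpt4 (0.44) and Srgn (0.21), higher in KO, and Mitf (-0.29), lower. For Hdc, Mcpt4 and Srgn all KO arrays lay above all WT arrays, 3 of the 13 against 8.18% of all genes. The mean level of the 13 markers per array was 10.17 to 10.43 in WT and 10.32 to 10.51 in KO. Of 10 macrophage and monocyte markers Cx3cr1 fell by 0.95 and 9 did not pass, with mean levels of 4.30 to 4.53 in WT and 4.04 to 4.29 in KO and the defining gene Csf1r at 3.47 to 3.54 and 3.35 to 3.44. Cx3cr1 read 8.68 to 9.04 in WT and 7.67 to 8.11 in KO, and Cd68 8.37 to 8.52 and 7.60 to 8.43. None of 10 neutrophil, 11 lymphocyte or 5 basophil markers passed by limma (0 at an unadjusted p under 0.05). Mean levels were 3.06 to 3.11 and 3.00 to 3.11 for neutrophil markers, 3.11 to 3.27 and 3.22 to 3.27 for lymphocyte markers and 6.46 to 7.30 and 6.55 to 7.12 for basophil markers, WT and KO in that order. Among the last, Mcpt8, a basophil protease, read 5.23 to 7.56 in WT and 5.64 to 7.58 in KO. The other basophil markers had WT and KO means of 11.87 and 11.66 (Gzmb), 8.42 and 8.50 (Cd200r3), 4.94 and 4.25 (Prss34) and 3.10 and 3.07 (Itga2). Levels thus differed widely within the list, and its mean does not measure the share of basophils. The part of other cells in the differences above was not tested.

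**Figure D4:**
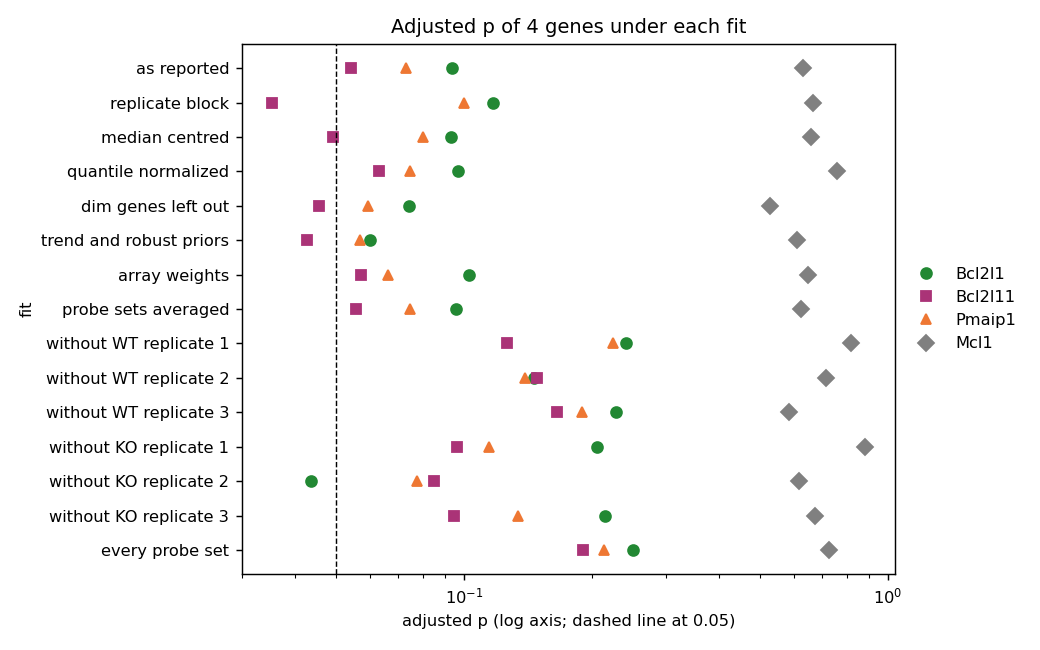
Adjusted p (log axis) of Bcl2l1, Bcl2l11, Pmaip1 and Mcl1 in the reported limma fit and its 14 alternatives, with a dashed line at the threshold of 0.05. Bcl2l11 lies below the line in 4 alternatives and Bcl2l1 in 1.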

How the data were processed

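RNA of 6 mast cell cultures was hybridised to Affymetrix Mouse Gene 1.0 ST arrays. The authors deposited log2 intensities from RMA, a tool that the submitters' processing notes name without a version and that normalizes between arrays. No further scaling was applied. The number of arrays, 3 per group, limits the precision.

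Of 35557 probe sets, 21789 had 1 gene symbol in the platform annotation, 1621 had several and 12147 were not listed. The brightest probe set stood for a gene, which left 19938 genes. The genotype effect was estimated by lmFit and eBayes (limma 3.58.1, R 4.3.3; two-sided), with p adjusted by Benjamini-Hochberg over all genes; a gene rose or fell where the adjusted p was under 0.05. The fit was tested on simulated data. Named are the 9 measured members, all listed relatives, the 3 lowest p and any passing gene of each pathway list, and the 3 closest profiles of 2 members; other genes were chosen after their values were seen. Members and lists were chosen with earlier results of these data known. Alternatives were a replicate block, median centring, quantile normalization, a filter on dim genes, other priors, array weights, every probe set, averaged probe sets and leaving out each array. Plots used matplotlib 3.10.9.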

Additional observations from a re-analysis of the deposited data

Results flagged for a closer look

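Outside the comparison, 3 probe sets that the annotation gives to 4 copies of the A1 gene at once, and which therefore name no single gene, were higher on all KO arrays than on any WT array, as were 7.72% of all 35557 probe sets. Probe set 10587683 read 3.28 ± 0.04 in WT and 4.22 ± 0.32 in KO (log2, SD, n = 3), a difference of 0.94 (limma adjusted p = 0.162 over every probe set). Probe set 10595633 differed by 0.64 (adjusted p = 0.251) and probe set 10587690 by 0.53 (adjusted p = 0.444). None passed, and their WT means of 3.28 to 3.63 lay below the array medians. The copies are near-identical and cannot be told apart here.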

How the results depend on the processing

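The 9 members gave 126 values under 14 alternatives, of which 118 kept both their direction and their side of the threshold, 5 came to pass and 3 changed sign. The replicate block, dim filter, other priors, averaged probe sets and every probe set left the members' differences identical to the reported fit. In those fits only the side of the threshold could change. The number of members that passed was 1 (Bcl2l11) with the replicate block, where its adjusted p was 0.0352, with median centring, without dim genes and with trend and robust priors. It was 0 to 1 over the fits without 1 array, the 1 being Bcl2l1. Over all genes 164 passed, 15 to 167 in the fits without 1 array and 4 over every probe set. Over the fits without 1 array Bbc3 ran from -0.11 (without WT replicate 3) to 0.39 and Bad from -0.19 to 0.037 (without WT replicate 2; 0.0085 without KO replicate 1). Among the relatives, Bok ran from -0.12 to 0.12, Bik from -0.11 to 0.17, Bcl2l13 from -0.16 to 0.11, Bcl2l14 from -0.00019 to 0.12 and Bcl2l15 from -0.028 to 0.065 in these fits, and Bcl2l13 was 0.029 with array weights. With the replicate block Foxo1 no longer passed (adjusted p = 0.0582), Myc and Jak2 came to pass (0.0438 and 0.0401), and the groups of Mcl1 overlapped after median centring and quantile normalization. Deviations from the group means correlated at -0.01, -0.06 and 0.24 between same-numbered arrays, and not every array correlated best with its own number. With 3 arrays per group these deviations are not independent, so the correlations cannot decide whether the replicate numbers pair the cultures. The block passed 199 genes over all, against 164 in the reported fit. The alternatives for the pathway genes were chosen after seeing the data; causes of these shifts were not tested. Signal below the array medians limits Bcl2a1c, Bcl2l10, Bcl2l14 and Bcl2l15 (in both genotypes) and Fas (in WT).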
